A study of Mus musculus with 12 samples.

Results

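The genes of the presynaptic vesicle release machinery are 37 named genes for synaptic vesicle proteins, the fusion machinery, the active zone and vesicle recycling. They were chosen by name and not by a rule on measured values, though earlier results of these data were known. They were found by exact match to the gene names of the expression table, where all 37 of them occurred among 55678 names. The RNA came from the medial prefrontal cortex (mPFC), a frontal region that takes part in the control of stress responses. The mice, aged 9 to 10 weeks, belonged either to C57BL/6JmsSlc, called B6 below, or to BALB/cCrSlc, called BALB/c, which are inbred strains, and none carried a transgene or a deletion according to the labels. In each strain, a control group was handled and a second group underwent chronic restraint stress (CRS), with confinement in a restrainer for 6 h a day over 21 days. All groups went through behavioural tests before tissue was taken as a 1.5 mm punch between 2.0 and 1.5 mm in front of bregma. Each of the 4 groups, B6 control, B6 CRS, BALB/c control and BALB/c CRS, had 3 libraries, which are named here by group and library number. The labels number the libraries without saying that each is a separate mouse, and they give no sex, litter or batch, so p-values measure only the spread between these libraries. Levels are in TPM, a measure of each transcript's share of the library's RNA with correction for transcript length, so they can be compared between genes. The read depth of the libraries is not known.

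At a nerve terminal, synaptic vesicles filled with transmitter are gathered by synapsins, docked and primed at the active zone, and fused with the plasma membrane when calcium binds a synaptotagmin. Fusion is driven by a SNARE complex of a vesicle protein (synaptobrevin, encoded by Vamp genes) with syntaxin and SNAP-25, and is regulated by complexins. The ATPase NSF and its SNAP adaptors then take the complex apart, and dynamin, amphiphysin, synaptojanin and endophilin retrieve the membrane. In cortex these genes are expressed by excitatory and inhibitory neurons, and several have paralogs that prevail in particular neuron types or regions.

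The libraries differed in their levels of neuronal and glial marker genes. The summed level of 12 excitatory neuron markers was 1766, 2133 and 3698 TPM in B6 control 2, 3 and 9, and between 1756 and 2941 TPM in the other 9 libraries. The summed level of 12 myelin and oligodendrocyte markers ranged from 2621 to 10046 TPM in B6 controls, from 2840 to 8142 TPM in B6 CRS, from 501 to 3211 TPM in BALB/c controls and from 567 to 1515 TPM in BALB/c CRS. The summed level of 12 striatal neuron markers, which are not expected to prevail in a cortical punch, ranged from 212 to 2873 TPM in B6 controls and from 914 to 2361 TPM in B6 CRS, against 114 to 378 TPM in BALB/c controls and 135 to 184 TPM in BALB/c CRS. None of the 12 striatal markers was at 0 in any library, and Drd2, the defining receptor of indirect-pathway striatal neurons, ranged from 1.09 TPM in B6 control 9 to 69.1 TPM in B6 control 2. The part of these differences in the results below was not tested, except where a fit with a marker level as covariate is given. In bulk tissue, fewer cells of a type and less RNA per cell cannot be told apart. BALB/c CRS 12 also stood apart by its ribosomal RNA, with Rn18s-rs5 at 3.97% of its TPM and at no more than 0.169% in any of the remaining libraries.

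The 37 genes were all expressed, with mean levels from 4.31 to 1775 TPM. All 37 reached at least 1 TPM in at least 3 libraries, the condition for testing. Averaged over the 12 libraries, Snap25 was highest at 1775 TPM, followed by Vamp2 at 812 TPM, Syp at 793 TPM, Dnm1 at 665 TPM and Rab3a at 626 TPM. The lowest were Syt2 at 4.31 TPM, Sv2c at 6.90 TPM and Syn3 at 7.71 TPM. For a given gene the highest library exceeded the lowest by a median factor of 1.84 over the 37 genes, from 1.34 to 9.15. The widest relative spread, as the coefficient of variation over all libraries, belonged to Sv2c at 82.7%, Syt2 at 61.4% and Vamp1 at 36.0%, and the narrowest to Syt11 at 9.38% and Syngr3 at 9.87%.

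**Figure D1:**
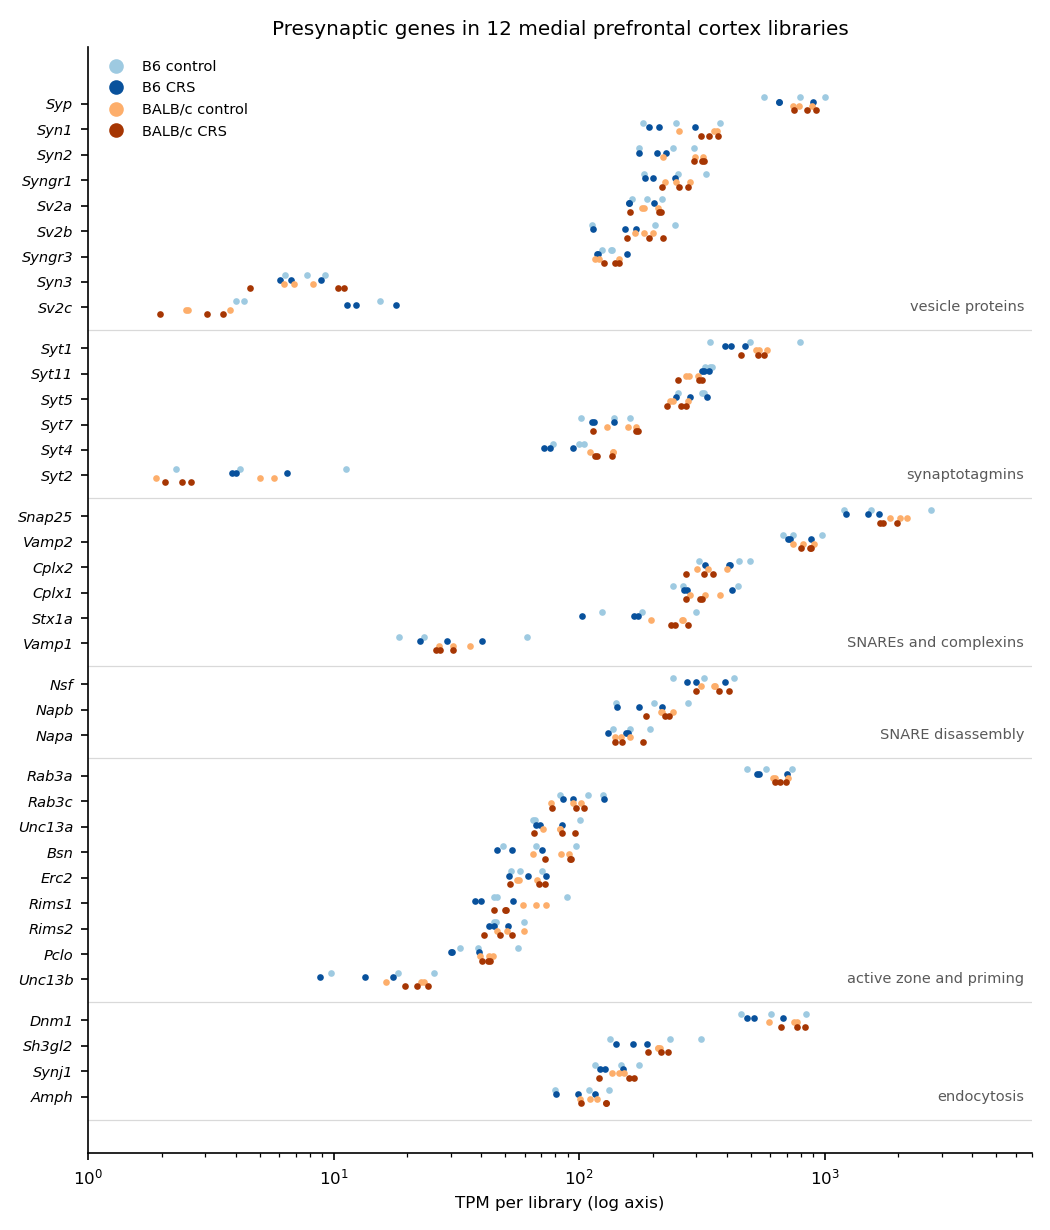
TPM of each of the 37 genes (log axis) in each of the 12 libraries, grouped by role, with 1 point per library coloured by group. Sv2c is the gene whose B6 points lie clear of the BALB/c points on the high side, from 4.01 to 18.0 TPM against 1.96 to 3.79 TPM.

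The summed level of the 37 genes was 7555, 9320 and 13084 TPM in B6 control 2, 3 and 9. It was 7875, 8432 and 10266 TPM in B6 CRS 12, 13 and 14, 11295, 9650 and 10156 TPM in BALB/c control 5, 9 and 10, and 9250, 11169 and 10438 TPM in BALB/c CRS 12, 13 and 15. B6 control libraries thus spanned the range of all 4 groups, with library 9 exceeding library 2 by 1.73-fold. B6 control 9 was the highest of the 12 libraries for 27 of the 37 genes, and B6 control 2 was the lowest for 18. Within BALB/c CRS, library 12 was the lowest for 35 of the 37 genes and library 13 the highest for 30. In B6 controls the order of the libraries for the summed presynaptic genes was the same as for the excitatory markers and the reverse of that for the myelin markers. In B6 CRS and in BALB/c controls the order was also the same as for the excitatory markers, but not the reverse of that for the myelin markers. BALB/c CRS kept neither order: library 12 was lowest for the presynaptic genes and for the myelin markers, and library 15 was lowest for the excitatory markers. The median ratio of highest to lowest library per gene was 1.72 in B6 controls, 1.36 in B6 CRS, 1.23 in BALB/c controls and 1.25 in BALB/c CRS, so the B6 controls had the widest scatter.

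**Figure D2:**
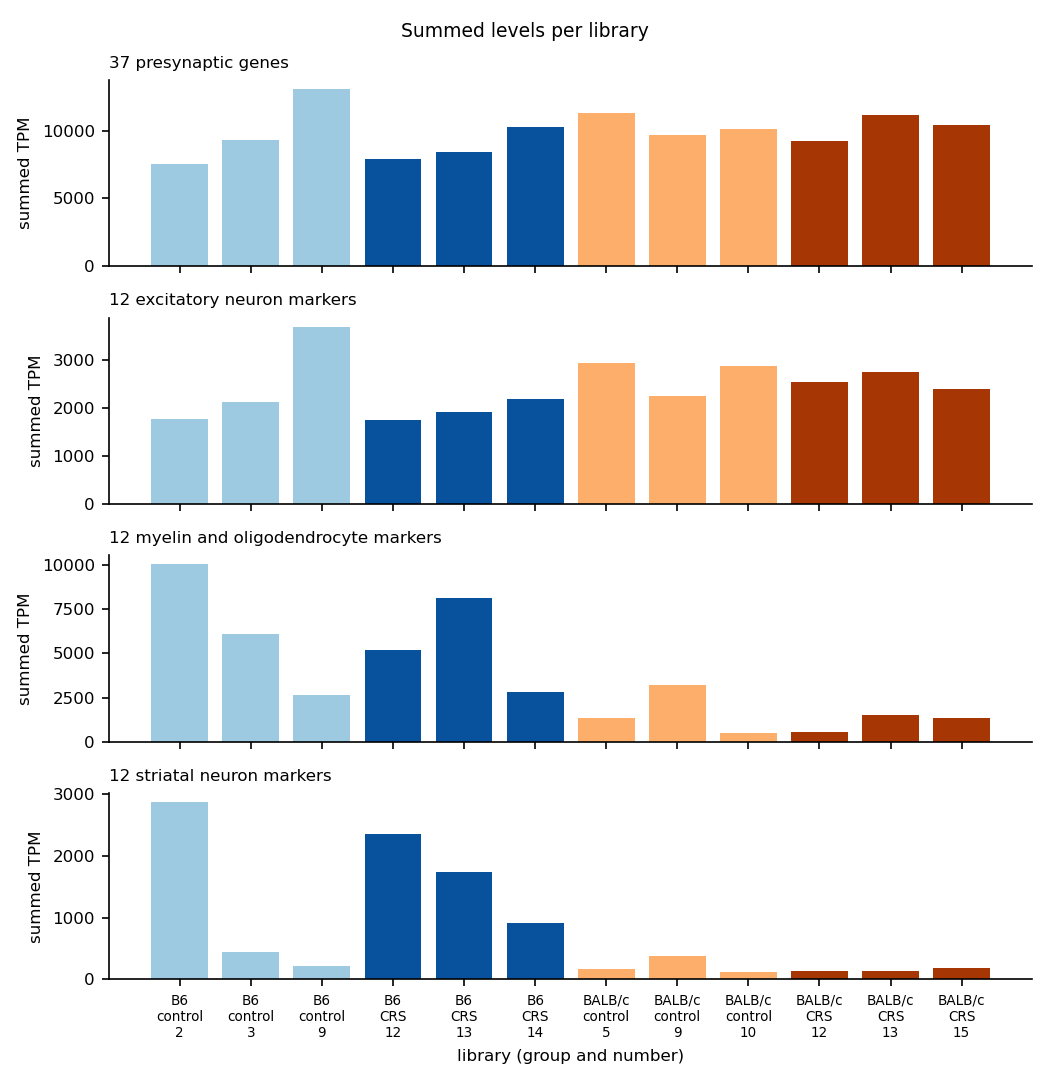
Summed TPM per library (bars from 0) of the 37 presynaptic genes and of 3 lists of 12 marker genes each, for excitatory neurons, myelin and oligodendrocytes, and striatal neurons. The presynaptic and excitatory sums peak in B6 control 9, at 13084 and 3698 TPM, while the myelin and striatal sums peak in B6 control 2, at 10046 and 2873 TPM.

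The first question was whether CRS altered these genes within a strain. In neither strain did a presynaptic gene pass the test, which was limma on log2(TPM + 1) with p-values adjusted over all 16423 genes tested and a threshold of 0.05. In B6, 0 of 37 genes passed against 0% of all genes, 1 had an unadjusted p under 0.05 against 4.82% of all genes, and the smallest adjusted p in limma was 1. In BALB/c, 0 of 37 passed against 0.00609% of all genes, and 0 had an unadjusted p under 0.05 against 3.03% of all genes. The log2 difference of CRS minus control was below 0 for 34 of the 37 genes in B6, with a median of -0.12 against 0 over all genes. Over all genes, 49.9% were above 0. The direction in B6 held in some fits and not in others. With the mean level of the myelin markers as a covariate, 34 of 37 genes were below 0, with a median of -0.13. When B6 control 2 was left out, 35 were below 0. Without B6 control 9, 14 genes were below 0 and 23 above, with a median of 0.03. With the mean level of the striatal markers as a covariate, a fit added after the values were seen, 29 of 37 were above 0, with a median of 0.08. In the same comparison all 12 striatal markers were above 0, with a median of 1.21, and 0 of them passed in limma. In BALB/c it was above 0 for 23 of 37 genes against 62.5% of all genes, with a median of 0.03 against 0.05 over all genes. Under median-of-ratios scaling 14 of 37 were above 0 in BALB/c. The B6 groups overlapped for each of the 37 genes, where 8.33% of all genes had groups that did not overlap (4.63% higher and 3.7% lower after CRS). In BALB/c 1 of 37 genes, Rims1, had groups that did not overlap, against 7.39% of all genes (5.36% higher and 2.02% lower).

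Averaged over both strains, again 0 of 37 genes passed in limma against 0.00609% of all genes, and 1 gene, Rims1, had an unadjusted p under 0.05 against 5.17% of all genes. The averaged difference was above 0 for 8 of 37 genes against 58% of all genes, and for 22 of 37 without B6 control 9. It was above 0 for 4 of 37 with the myelin covariate, and also for 4 of 37 without B6 control 2. The difference between the strains in their response to CRS was also tested directly. No presynaptic gene passed this interaction test in limma (0 of 37 against 0% of all genes), and 0 had an unadjusted p under 0.05 against 2.7% of all genes. It was above 0, meaning a value more positive in BALB/c than in B6, for 30 of 37 genes against 59.7% of all genes, and for 18 of 37 without B6 control 9. With the striatal covariate it was above 0 for 7 of 37 genes, with a median of -0.13. With the myelin covariate it was above 0 for 30 of 37, and without B6 control 2 for 33 of 37. The intervals come from a fit with a common spread for all 4 groups, although the B6 controls had the widest scatter. Under that fit they show what 3 libraries per group could resolve. For Snap25 the 95% interval of the log2 difference ran from -0.75 to 0.27 in B6, and for Syngr3, among the least variable genes, from -0.29 to 0.26.

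**Figure D3:**
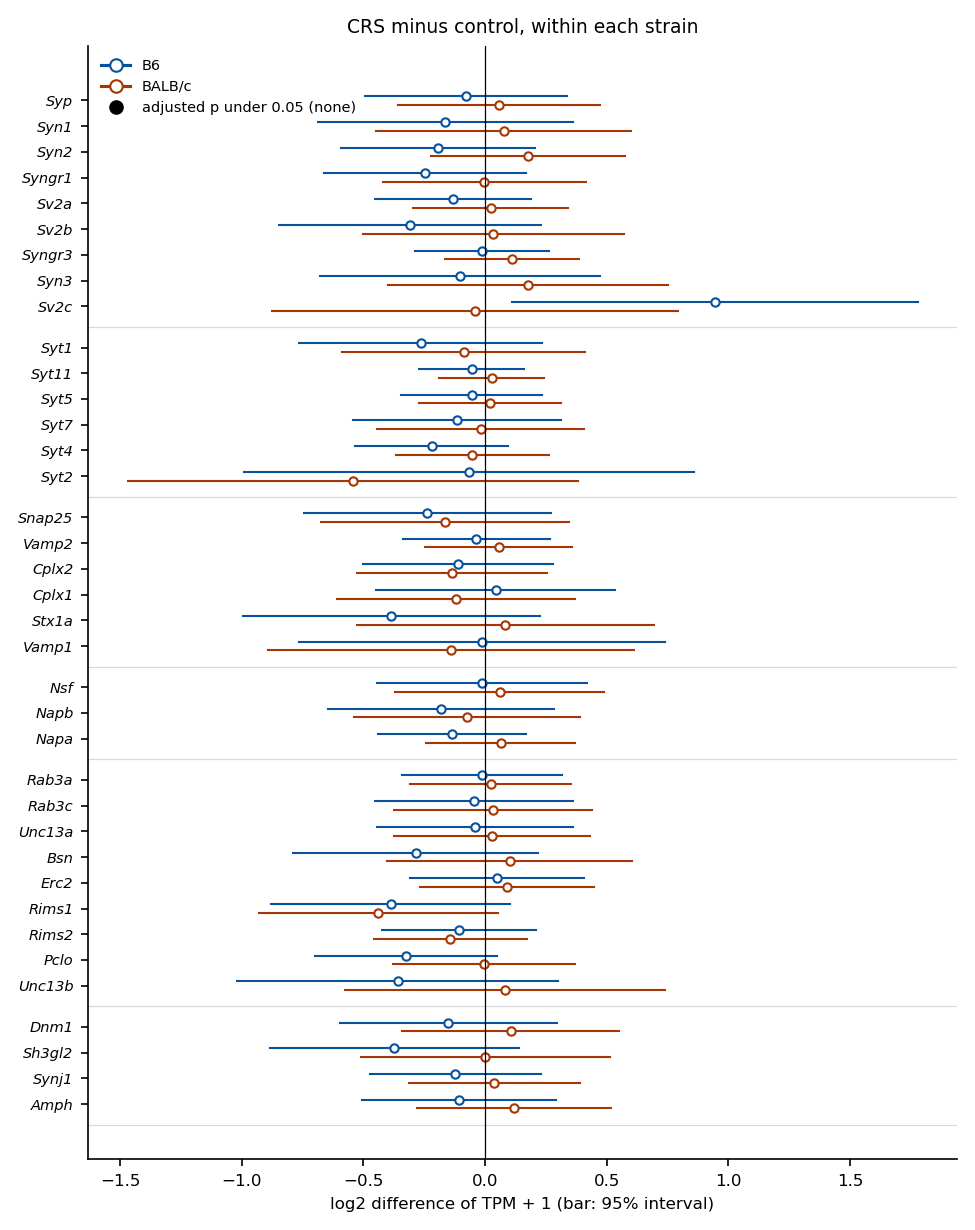
Difference in log2(TPM + 1) between CRS and control for each of the 37 genes in B6 (blue) and BALB/c (red), with bars for the 95% intervals from limma. Sv2c in B6, at 0.94, is the gene whose interval excludes 0, and no gene passed after adjustment.

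The second question was how the strains differed. Among controls, 0 of 37 presynaptic genes passed in limma although 4.73% of all genes did (1.36% higher and 3.37% lower in BALB/c). After CRS, 2 of 37 passed against 7.7% of all genes: Syt4, a synaptotagmin of secretory vesicles, was higher in BALB/c (1 of 37 against 2.37% of all genes), and Sv2c, a vesicle glycoprotein, was lower (1 of 37 against 5.33% of all genes). An unadjusted p under 0.05 was reached by 3 of 37 genes in controls against 18.7% of all genes, and by 7 of 37 after CRS against 23.8% of all genes. The log2 difference of BALB/c minus B6 was above 0 for 27 genes in controls against 32.3% of all genes, with a median of 0.06 against -0.10 over all genes. After CRS it was above 0 for 29 genes against 41.3% of all genes, with a median of 0.17 against -0.06 over all genes. Non-overlapping groups after CRS were found for 9 genes that were higher in BALB/c against 9.29% of all genes, and for 2 that were lower against 20% of all genes. In controls this held for 1 gene that was higher against 4.16% and for 2 that were lower against 18.7%.

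These directions changed when marker levels entered the fit. With the mean level of the myelin markers as a covariate, 3 of 37 genes were above 0 in controls and 16 of 37 after CRS, and no member passed. With the striatal markers as covariate, 1 and 2 of 37 were above 0 and again no member passed. After CRS the striatal sums of the strains do not overlap, and the same holds for the myelin sums, so strain and marker level cannot be told apart there. Without B6 control 2, the library with the highest myelin and striatal sums, 7 of 37 were above 0 in controls. Without B6 control 9 it was 30 of 37. After CRS, the fits without a library had 26 to 32 of 37 genes above 0. The 2 comparisons of strains share no libraries with each other, but each shares libraries with the comparisons of CRS.

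**Figure D4:**
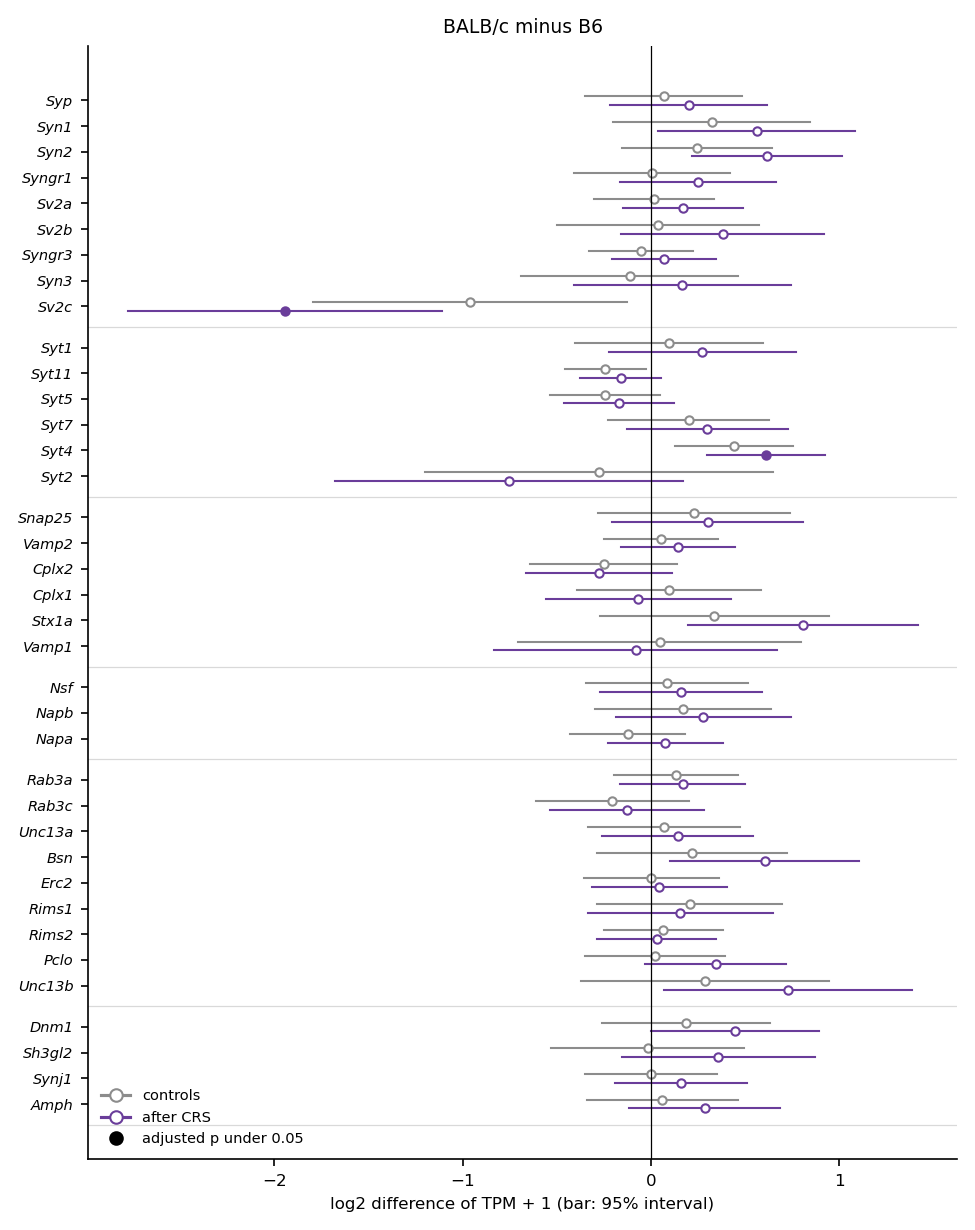
Difference in log2(TPM + 1) between BALB/c and B6 for each of the 37 genes in controls (grey) and after CRS (purple), with bars for the 95% intervals from limma and filled points for an adjusted p under 0.05. Sv2c at -1.94 and Syt4 at 0.61 after CRS are the filled points.

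Among the vesicle proteins, the SV2 family held the clearest strain difference. SV2 proteins are glycoproteins of the vesicle membrane that aid exocytosis, and SV2C prevails in the basal ganglia whereas SV2A and SV2B are widespread. Sv2c (chr13:95954594-96132577, minus strand, GRCm38) was at 15.5, 4.01 and 4.31 TPM in B6 control 2, 3 and 9 and at 18.0, 11.3 and 12.4 TPM in B6 CRS 12, 13 and 14. In BALB/c it was at 2.55, 3.79 and 2.50 TPM in control 5, 9 and 10 and at 1.96, 3.06 and 3.55 TPM in CRS 12, 13 and 15. All 6 B6 libraries were above all 6 BALB/c libraries, while B6 control 2 lay among the B6 CRS libraries and well above the other B6 controls. After CRS, B6 had a mean of 13.9 ± 3.58 TPM (SD, n = 3) and BALB/c of 2.86 ± 0.810 TPM (SD, n = 3), a 4.86-fold ratio, with a log2 difference of -1.94 (SE 0.38, adjusted p = 0.0102 in limma). In controls the means were 7.93 ± 6.53 and 2.95 ± 0.731 TPM (SD, n = 3 each), and the log2 difference of -0.96 (SE 0.38) had an adjusted p of 0.201 in limma. Within B6, CRS minus control was 0.94 (95% interval 0.11 to 1.78, adjusted p = 1 in limma), and within BALB/c it was -0.04 (95% interval -0.88 to 0.79). The difference between these responses was -0.98 (95% interval -2.16 to 0.20, adjusted p = 1 in limma). B6 control 2 weighed on these values. Without it the difference of CRS minus control in B6 was 1.50 (adjusted p = 0.0583 in limma), the difference between responses was -1.54 (adjusted p = 0.416 in limma), and that between control strains was -0.40 (adjusted p = 0.502 in limma). With the striatal covariate the difference of CRS minus control in B6 was 0.38 (adjusted p = 0.997 in limma) and the difference between responses was -0.27 (adjusted p = 1 in limma). The myelin covariate gave 0.99 for CRS minus control in B6 (adjusted p = 0.718 in limma) and -0.95 for the difference between responses.

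The libraries split in the same way by Sv2c and by the striatal markers. The 4 libraries with Sv2c above 10 TPM, B6 control 2 and B6 CRS 12, 13 and 14, were also those with the highest striatal sums, at 2873, 2361, 1743 and 914 TPM. In the 8 others Sv2c did not exceed 4.31 TPM and the striatal sum did not exceed 444 TPM. Within these sets of 4 and 8 libraries the orders differed: B6 CRS 14 had more Sv2c than B6 CRS 13 at a lower striatal sum. With the striatal level as covariate the difference between strains after CRS was -0.57 (adjusted p = 0.56 in limma), and with the myelin level it was -1.27 (adjusted p = 0.337 in limma). The call was also lost without B6 CRS 12 (-1.76, adjusted p = 0.0512 in limma) and without BALB/c CRS 12 (-1.77, adjusted p = 0.0542 in limma). As a share of Sv2a in the same library, Sv2c was 9.5%, 2.1% and 2.0% in B6 controls, 11.2%, 7.1% and 6.1% in B6 CRS, and between 1.2% and 2.1% in BALB/c. Sv2a itself, the widespread paralog, ranged from 159 to 217 TPM with overlapping groups, and Sv2b from 113 to 246 TPM, lowest in B6 control 2 and B6 CRS 12.

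**Figure D5:**
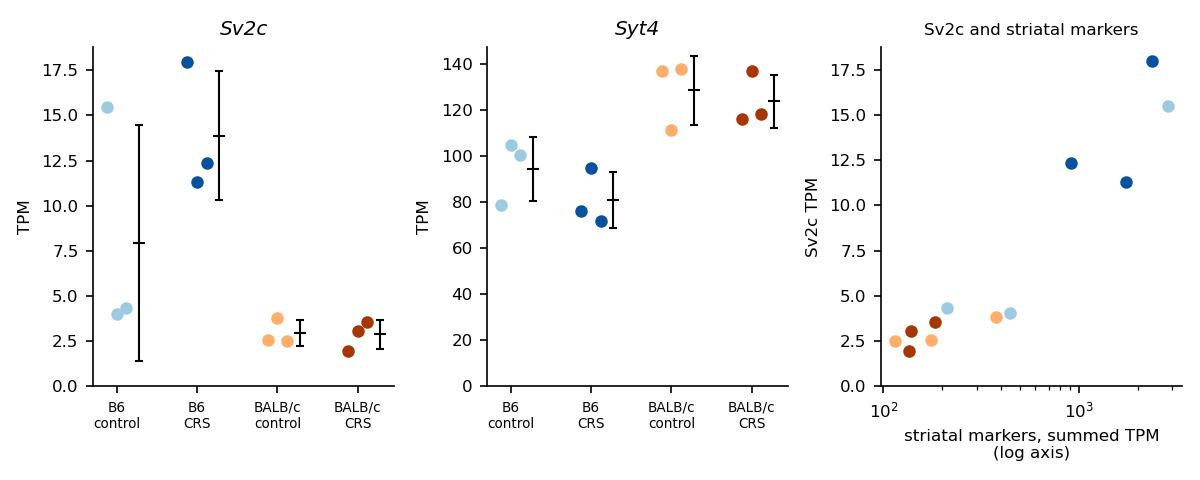
Left and middle, TPM of Sv2c and Syt4 in the 12 libraries by group, with the mean and SD of 3 libraries beside the points. Right, Sv2c TPM against the summed TPM of 12 striatal markers (log axis) in the same colours, where the 4 libraries with Sv2c above 10 TPM are the 4 with striatal sums of 914 TPM or more.

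The sequences upstream of the 3 SV2 genes and of Syn1 are shown because the SV2 paralogs differed in level and in strain difference, and because Syn1 carried both rarer motifs. They come from RefSeq promoters of GRCm38.p6, a C57BL/6J assembly, trimmed to bases before the annotated gene, 5′ to 3′ on the gene's strand. Capitals mark the motifs searched on both strands, which were the GC box GGGCGG, the cyclic AMP response element TGACGTCA, the TATA box TATAAA, and RE1, the site bound by REST, with up to 3 mismatches to its consensus. For Sv2b, which has several promoters, the outermost is shown. No motif overlapped another in the stretches printed.
Sv2c, chr13:96132578-96132827, minus strand: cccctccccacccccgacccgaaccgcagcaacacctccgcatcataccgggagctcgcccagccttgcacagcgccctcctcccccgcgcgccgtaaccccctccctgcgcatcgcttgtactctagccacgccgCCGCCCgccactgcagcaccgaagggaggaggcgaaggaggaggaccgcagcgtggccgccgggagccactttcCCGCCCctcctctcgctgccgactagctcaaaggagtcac
Sv2a, chr3:96180977-96181150, plus strand: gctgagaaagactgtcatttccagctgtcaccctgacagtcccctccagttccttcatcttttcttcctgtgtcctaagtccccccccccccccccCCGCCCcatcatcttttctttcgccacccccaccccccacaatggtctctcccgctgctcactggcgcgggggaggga
Sv2b, chr7:75309263-75309512, minus strand: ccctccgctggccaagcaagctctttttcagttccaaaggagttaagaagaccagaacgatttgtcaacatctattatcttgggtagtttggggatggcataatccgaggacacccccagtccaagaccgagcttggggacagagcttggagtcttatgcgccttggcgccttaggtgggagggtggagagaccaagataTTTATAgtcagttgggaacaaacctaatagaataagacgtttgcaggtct
Syn1, chrX:20921005-20921168, minus strand: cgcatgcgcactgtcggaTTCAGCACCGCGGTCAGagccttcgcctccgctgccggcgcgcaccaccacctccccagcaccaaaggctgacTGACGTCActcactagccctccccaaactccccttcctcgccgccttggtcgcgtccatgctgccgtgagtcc
Sv2c held 2 GC boxes and Sv2a 1, all in reverse orientation, in GC-rich sequence of 70.8% and 66.0% GC over the whole window of 250 bases, with 26 and 13 CpG sites. Sv2b had 48.8% GC and 7 CpG sites, near the medians of 52.4% and 6 over all promoters, and held a TATA box match in reverse. Syn1 held a cyclic AMP response element and an RE1 match. Promoters were found for 29 of the 37 members, and some had several, which gave 37 promoters in all. Of these 37 promoters, 21 held a GC box against 32.742% of 32851 promoters of the same length, 2 held TGACGTCA (in Syn1 and Sh3gl2) against 1.546%, 2 held TATAAA (both in Sv2b) against 12.368%, and 2 held an RE1 match (in Syn1 and Syt2) against 0.925%. These matches describe letters in a window and do not show that a factor binds there.

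The synapsins, which tether vesicles to each other and to actin, were represented by Syn1, Syn2 and Syn3. Syn2 was at 176, 241 and 294 TPM in B6 control 2, 3 and 9, at 176, 209 and 226 TPM in B6 CRS 12, 13 and 14, 297, 220.4 and 319 TPM in BALB/c control 5, 9 and 10, and 294, 324 and 317 TPM in BALB/c CRS 12, 13 and 15. The CRS groups of the strains did not overlap, and the control groups did. After CRS the log2 difference of BALB/c minus B6 was 0.62 (SE 0.18, adjusted p = 0.0602 in limma), and in controls it was 0.25 (SE 0.18, adjusted p = 0.520 in limma). The value after CRS passed under median-of-ratios scaling, without mitochondrial, Bc1 and rRNA genes, and when B6 control 2, B6 control 9 or BALB/c control 9 was left out. Leaving out a control library left the values of the CRS libraries as they were. With the myelin or the striatal covariate Syn2 did not pass after CRS. The value in controls was 0.048 without B6 control 2 and 0.42 without B6 control 9. Within strains CRS minus control was -0.19 in B6 and 0.18 in BALB/c, with an interaction of 0.37 (95% interval -0.19 to 0.93, adjusted p = 1 in limma). The interaction was 0.20 without B6 control 9, 0.57 without B6 control 2 and 0.018 with the striatal covariate. Syn1 ranged from 181 TPM in B6 control 2 to 375 TPM in B6 control 9, and its CRS groups, at 192 to 296 TPM in B6 and 314 to 368 TPM in BALB/c, did not overlap (0.56, SE 0.24, adjusted p = 0.177 in limma). Syn3, the least abundant synapsin, was at 4.57 to 11.0 TPM, and both of these extremes were BALB/c CRS libraries.

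Synaptophysin (Syp), an abundant tetraspan protein of the vesicle membrane, ranged from 567 to 1008 TPM, with both extremes among the B6 controls. The synaptogyrins are related tetraspan proteins. Syngr1 ranged from 184 to 330.2 TPM and Syngr3 from 116 to 156 TPM. Syngr3 had the second-lowest p among genes above 0 in BALB/c, yet its CRS minus control difference was 0.11 (95% interval -0.16 to 0.39, adjusted p = 1 in limma), with 145, 116 and 121 TPM in controls and 126, 146 and 140.2 TPM after CRS.

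Among the synaptotagmins, Syt4 differed between the strains after CRS. Syt4 lacks a calcium-binding residue of the fast sensors and is found on dense-core and postsynaptic vesicles. It was at 78.6, 105 and 100.2 TPM in B6 control 2, 3 and 9 and at 76.3, 94.7 and 71.9 TPM in B6 CRS 12, 13 and 14. In BALB/c it was at 137, 111 and 138 TPM in control 5, 9 and 10 and at 116, 137 and 118 TPM in CRS 12, 13 and 15. All 6 BALB/c libraries were above all 6 B6 libraries, with 105 TPM as the highest B6 value and 111 TPM as the lowest BALB/c value. After CRS the B6 mean was 80.9 ± 12.1 TPM (SD, n = 3) and the BALB/c mean 124 ± 11.4 TPM (SD, n = 3), a 1.53-fold ratio, with a log2 difference of 0.61 (SE 0.14, adjusted p = 0.0258 in limma). In controls the means were 94.5 ± 13.9 and 129 ± 15.1 TPM (SD, n = 3 each), a 1.36-fold ratio, with a log2 difference of 0.44 (SE 0.14, adjusted p = 0.111 in limma). Under median-of-ratios scaling the difference in controls also passed (0.56, adjusted p = 0.043 in limma).

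The Syt4 call was lost in several fits, although the difference kept its direction. After CRS it was lost without any single library of the CRS groups other than B6 CRS 13, with log2 differences between 0.53 and 0.65 and adjusted p between 0.0539 and 0.0984 in limma. With the myelin level as covariate it was 0.53 (adjusted p = 0.377 in limma), and with the striatal level 0.32 (adjusted p = 0.583 in limma). Within strains CRS minus control was -0.22 (95% interval -0.53 to 0.09) in B6 and -0.05 (95% interval -0.37 to 0.26) in BALB/c, each with an adjusted p of 1 in limma. An annotated gene on the opposite strand, Gm26658, overlaps exons of Syt4. Such overlaps on the opposite strand also exist for other members, among them Syn1, Syn2, Pclo, Erc2 and Unc13a. Bsn has an overlap on the same strand. Whether the quantification used strand is not given in the sources used here.

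Syt11, a synaptotagmin that does not act as a calcium sensor, showed the opposite order in controls. It was at 341, 325 and 349 TPM in B6 control 2, 3 and 9 and at 305, 281 and 273 TPM in BALB/c control 5, 9 and 10. The control groups did not overlap, but the log2 difference of -0.24 (SE 0.10) had an adjusted p of 0.218 in limma. After CRS the groups overlapped, with 316 to 338 TPM in B6 and 252 to 318 TPM in BALB/c. As a share of Syt11 in the same library, Syt4 was 21.3% to 32.2% in B6 and 38.3% to 50.4% in BALB/c.

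Syt1, the main fast calcium sensor of forebrain synapses, ranged from 341 to 797 TPM, both among the B6 controls, and its log2 differences between strains were 0.10 in controls and 0.27 after CRS. Syt2, the fast sensor of parvalbumin interneurons and hindbrain neurons, was at 4.15, 2.29 and 11.2 TPM in B6 control 2, 3 and 9, at 6.43, 3.86 and 3.99 TPM in B6 CRS 12, 13 and 14, 5.72, 5.03 and 1.88 TPM in BALB/c control 5, 9 and 10, and 2.05, 2.63 and 2.40 TPM in BALB/c CRS 12, 13 and 15. Its CRS groups did not overlap between the strains, and its log2 difference of -0.75 (SE 0.42) had an adjusted p of 0.313 in limma. Within BALB/c, CRS minus control was -0.54 for Syt2 (95% interval -1.47 to 0.38, adjusted p = 1 in limma). Syt5 ranged from 229 to 332 TPM and Syt7, a slow high-affinity sensor, from 102 to 174 TPM. Neither had groups that did not overlap.

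The SNARE genes varied in parallel among the B6 controls. Snap25, which encodes a plasma membrane SNARE, was at 1198, 1546 and 2719 TPM in B6 control 2, 3 and 9, at 1225, 1504 and 1670.0 TPM in B6 CRS 12, 13 and 14, 2169, 2030.0 and 1849 TPM in BALB/c control 5, 9 and 10, and 1683, 1981 and 1728 TPM in BALB/c CRS 12, 13 and 15. B6 control 9 was the highest of all libraries, and every other B6 library was below every BALB/c library. The log2 difference between strains was 0.23 in controls (SE 0.23, adjusted p = 0.657 in limma) and 0.30 after CRS (SE 0.23, adjusted p = 0.479 in limma), and Snap25 passed in controls when B6 control 9 was left out. Stx1a, which encodes syntaxin-1A, was at 123, 181 and 299 TPM in B6 controls, at 103, 168 and 174 TPM in B6 CRS, 262, 195 and 266 TPM in BALB/c controls, and 246, 277 and 237 TPM in BALB/c CRS. Its CRS groups did not overlap, with a log2 difference of 0.81 (SE 0.28, adjusted p = 0.101 in limma). It passed without B6 control 2 or without B6 control 9, which left the values of the CRS libraries as they were.

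The synaptobrevins differed widely in abundance. Vamp2, the main vesicle SNARE of the forebrain, ranged from 675 to 977 TPM, and Vamp1, which prevails in fast-spiking and hindbrain neurons, from 18.5 to 61.3 TPM. Vamp1 was 2.7% of Vamp2 in B6 control 2 and 6.3% in B6 control 9, and these were also the extremes over all libraries. The 7 parvalbumin interneuron markers summed to 89.0 and 199.98 TPM in the same libraries, and B6 control 9 was highest for Vamp1, Syt2 and these markers alike. This was not particular to them, since B6 control 9 was the highest library for 27 of the 37 genes and for the excitatory markers. The complexins clamp and promote fusion. Cplx1 was at 240.3 to 443 TPM and Cplx2 at 272 to 499 TPM, and Cplx1 as a share of Cplx2 was 59.2% to 102.9% in B6 and 88.6% to 99.9% in BALB/c.

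The genes for SNARE disassembly showed no called difference. Nsf, the ATPase, ranged from 241 to 428 TPM, Napa (alpha-SNAP) from 131 to 194 TPM and Napb (beta-SNAP, the brain form) from 141 to 279 TPM. For each of these the highest value was in B6 control 9. Napb as a share of Napa was 102.0%, 125.6% and 144.0% in B6 control 2, 3 and 9, and 127.8% to 155.3% in BALB/c.

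In the active zone and priming group, Rims1 had the lowest p for CRS over both strains. RIM1, its product, is a scaffold that links Rab3 on vesicles to priming factors and calcium channels. Rims1 was at 45.1, 46.2 and 89.1 TPM in B6 control 2, 3 and 9, at 37.8, 40.0 and 54.0 TPM in B6 CRS 12, 13 and 14, 73.0, 66.7 and 59.3 TPM in BALB/c control 5, 9 and 10, and 45.2, 50.4 and 50.02 TPM in BALB/c CRS 12, 13 and 15. In BALB/c the groups did not overlap. In B6 they overlapped. The log2 difference of CRS minus control was -0.39 in B6 (95% interval -0.88 to 0.10) and -0.44 in BALB/c (95% interval -0.93 to 0.05), each with an adjusted p of 1 in limma. Averaged over strains it was -0.41 (95% interval -0.76 to -0.07, unadjusted p = 0.0236, adjusted p = 0.946 in limma) and -0.26 without B6 control 9. The value in B6 was -0.07 without B6 control 9, the library where Rims1 was highest. Its paralog Rims2, from 41.2 to 59.9 TPM, was 76.3% to 82.0% of Rims1 in BALB/c controls and 91.1% to 106.6% in BALB/c CRS, and in B6 these ranges were 67.3% to 101.6% and 83.0% to 135.3%.

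Bassoon (Bsn) and Piccolo (Pclo) are giant scaffolds of the active zone. Bsn was at 46.3, 53.3 and 70.4 TPM in the B6 CRS libraries, and the BALB/c CRS libraries had 72.7, 93.1 and 91.9 TPM, without overlap (0.60, SE 0.23, adjusted p = 0.132 in limma). Pclo was at 32.8, 38.7 and 56.3 TPM in B6 control 2, 3 and 9, at 30.1, 30.3 and 39.0 TPM in B6 CRS, 42.8, 39.3 and 44.6 TPM in BALB/c controls, and 40.2, 43.3 and 42.8 TPM in BALB/c CRS. Within B6, CRS minus control was -0.33 for Pclo (95% interval -0.70 to 0.05, adjusted p = 1 in limma), and the interaction was 0.32 (95% interval -0.21 to 0.85). The B6 groups overlapped.

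Unc13a and Unc13b encode Munc13 priming factors. Unc13b was at 9.72, 18.4 and 25.6 TPM in B6 controls, at 8.77, 13.5 and 17.5 TPM in B6 CRS, 23.4, 16.4 and 22.7 TPM in BALB/c controls, and 19.6, 24.3 and 21.9 TPM in BALB/c CRS. The CRS groups did not overlap (0.73, SE 0.30, adjusted p = 0.166 in limma). As a share of Unc13a in the same library, Unc13b was 15.0% and 12.6% in B6 control 2 and B6 CRS 12, the 2 libraries with the highest striatal sums, and 20.2% to 29.8% in the others. Unc13a itself ranged from 64.9 to 101 TPM. Erc2, an active zone scaffold that binds RIM, ranged from 51.9 to 73.5 TPM with a CRS minus control difference of 0.05 (SE 0.16) in B6. The small GTPases Rab3a and Rab3c, which mark vesicles for docking, ranged from 485 to 739 TPM and from 76.8 to 127 TPM.

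The endocytosis genes were Dnm1 (dynamin-1, which cuts the vesicle neck), Amph (amphiphysin), Synj1 (synaptojanin-1, a lipid phosphatase) and Sh3gl2 (endophilin-A1). Dnm1 ranged from 456 TPM in B6 control 2 to 842 TPM in B6 control 9, and its log2 difference between strains after CRS was 0.45 (95% interval -0.0015 to 0.89, adjusted p = 0.212 in limma). Sh3gl2 was at 133, 234 and 313 TPM in B6 control libraries, and BALB/c control libraries had 210.3, 214 and 210.2 TPM, so the groups had nearly the same centre and very unlike spreads (SD 90.2 and 1.95 TPM, n = 3 each). After CRS it was at 141 to 190.0 TPM in B6 and 191 to 230.2 TPM in BALB/c, which did not overlap (0.36, SE 0.24, adjusted p = 0.392 in limma). Amph ranged from 79.8 to 132 TPM and Synj1 from 116 to 175 TPM, each lowest in B6 control 2 and highest in B6 control 9.

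Other genes of the same pathway were taken from lists of 84 genes, of which 83 could be tested. For CRS, 0 of 83 passed in limma in either strain or on average. Among controls, 3 of 83 were called lower in BALB/c against 3.37% of all genes, and 0 higher against 1.36%. These were Syt10, a synaptotagmin linked to IGF-1 secretion in olfactory bulb neurons (B6 at 6.01 ± 0.512 TPM, BALB/c at 1.96 ± 0.812 TPM, SD, n = 3 for either, log2 difference -1.28, adjusted p = 0.0112 in limma), Slc17a8, the vesicular glutamate transporter VGLUT3 (-1.04, adjusted p = 0.0230 in limma), and Rab3b, a paralog of Rab3a (-0.58, adjusted p = 0.0338 in limma). Slc17a8 was scarce: among controls the B6 libraries had 2.39, 1.42 and 1.14 TPM, while those of BALB/c had 0.541, 0.0537 and 0.235 TPM. No BALB/c library reached 1 TPM, so Slc17a8 entered the test through B6 libraries only. A call in the lower direction was therefore favoured beforehand for this gene. After CRS, 4 of 83 were called lower in BALB/c against 5.33% of all genes, and 1 higher against 2.37%. In both comparisons the counts were near or below the shares over all genes. Syt6 was lower at -1.33 (adjusted p = 0.0474 in limma), Syt10 at -1.27 (adjusted p = 0.0109 in limma) and Syngr2 at -0.70 (adjusted p = 0.0360 in limma), while Rimbp2, a RIM-binding active zone scaffold, was higher at 0.81 (adjusted p = 0.0328 in limma). The fourth lower gene was Rab3b. Syt6 was also highest in B6 control 2 and B6 CRS 12, at 32.6 and 30.8 TPM, where the striatal sums were highest, and ranged from 6.55 to 22.2 TPM elsewhere. Over the 83 genes the median log2 difference between strains was -0.04 in controls and 0.08 after CRS.

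The table gives several rows per gene name, apparently 1 per transcript, without transcript identifiers. The 37 genes had 233 rows, of which 157 were among the 46000 rows that could be tested on their own, a test added after the values were seen. Between strains, 1 member row passed in controls against 1.69% of all rows, and 3 passed after CRS against 2.08% (limma, adjusted over all rows). A minor row of Erc2, which held 3.04% of the gene's mean TPM, was listed at 0 in 5 of the 6 B6 libraries and at 0.29 TPM in B6 control 9. In BALB/c the same row was at 3.29, 4.80 and 5.22 TPM in control 5, 9 and 10, and 3.27, 4.63 and 1.03 TPM in CRS 12, 13 and 15. Its log2(TPM + 1) difference was 2.30 in controls (adjusted p = 0.005 in limma) and 1.87 after CRS (adjusted p = 0.0188 in limma), while Erc2 as a whole differed by 0.00 and 0.05. This minor row met the condition for testing only through BALB/c libraries, so the direction of its calls was favoured in advance. The second-ranked row of Stx1a, 5.24% of that gene, was at 5.07, 7.60 and 6.35 TPM in the B6 CRS libraries, and the BALB/c CRS libraries had 13.8, 15.8 and 16.5 TPM (1.16, adjusted p = 0.0463 in limma). The third was the leading row of Sv2c, which held 98.7% of that gene (-1.94, adjusted p = 0.0316 in limma). A listed 0 can also come from the quantification, and whether strain differences in sequence move these rows was not tested.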

How the data were processed

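RNA of 12 mouse mPFC libraries (3 in each of 4 groups, grouped by sample titles) was analysed. Per the labels' protocols, libraries were stranded mRNA libraries read as paired ends. The authors deposited TPM per table row (147902 rows, 55678 gene names), with each library summing to 1000000. The unit was read from these sums. The submitters' processing notes name cutadapt 2.9, Salmon and GRCm38, a C57BL/6J assembly. Its effect on BALB/c values, the annotation and the use of strand are not given in the sources used here. Depth is unknown, so precision rests on the spread between libraries.

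Rows were added up by gene name. The test used the 16423 genes that reached 1 TPM in 3 or more libraries, on log2(TPM + 1), which understates changes of low genes, with limma 3.58.1 in R 4.3.3 (4 group means, 8 residual degrees of freedom, eBayes with trend, Benjamini-Hochberg adjustment over all tested genes, called under 0.05). The fit was tried on simulated data with independent noise of equal spread in all groups. The B6 controls scattered more widely than that, so the simulation does not check the calls reported here. A test planned for counts was not used, since the values are TPM. Alternatives were a pseudocount of 0.1, no filter, a mean of at least 5 TPM, median-of-ratios scaling, removal of mitochondrial, Bc1 and rRNA genes, marker covariates, a replicate block and leaving out each library. The fit with the striatal covariate and the test of single table rows were chosen after seeing the data. Members, lists and tests were chosen with earlier results of these data known. Named with full values were genes called in any comparison and, where none was called, the 2 of lowest p per direction. Other members named with values in every library were chosen after their values were seen. Gene positions and exon overlaps come from GENCODE M21, and promoters from RefSeq (250 bases upstream). Copies were searched with blastn 2.17.0 at 95% identity over 80% of the shorter transcript, and no member had a tested copy.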

Additional observations from a re-analysis of the deposited data

How the results depend on the processing

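The calls of Sv2c and Syt4 after CRS kept their direction under all 7 other settings that kept all libraries, in the striatal fit chosen after seeing the data and in all 12 fits without a library, and both passed under 6 of those 7. With the myelin or the striatal covariate 0 members passed in the comparison of strains after CRS. Median-of-ratios scaling called 1 member, Syt4, in controls (0.56 on the log2 scale). Leaving out a library gave 0 to 4 called members after CRS, 0 to 1 in controls and 0 in the comparisons of CRS and the interaction.

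Over all genes, the strain comparison after CRS gave 702 calls at a mean of at least 5 TPM, 276 with the myelin covariate, 237 with the striatal covariate and 750 with the replicate block, against 1264, and 539 to 1852 without a library. In controls it gave 437 at a mean of at least 5 TPM and 306 with the myelin covariate, against 777, and 428 to 1389 without a library. Median-of-ratios scaling lowered the share of lower calls from 71.2% to 55.6% in controls and from 69.2% to 54.6% after CRS. CRS in B6 gave 2 calls with a pseudocount of 0.1, 7 without a filter, 1 at a mean of at least 5 TPM and 1 with the replicate block, against 0. CRS in BALB/c gave 0 with a pseudocount of 0.1, without a filter, at a mean of at least 5 TPM, with median-of-ratios scaling and with the replicate block, and 2 with the striatal covariate, against 1. The average of both gave 2 without a filter, at a mean of at least 5 TPM, with median-of-ratios scaling and without mitochondrial, Bc1 and rRNA genes, against 1. The interaction gave 2 without a filter and 1 with the striatal covariate, against 0. Without a library each of these 4 gave 0 to 2. The cause of these changes was not tested.

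Some uncalled log2 differences changed sign. Erc2 in B6 was -0.039 without B6 control 3 and -0.073 without B6 CRS 14, with a range of -0.073 to 0.17 over the fits without a library. Sv2c in BALB/c was 0.044 with the myelin covariate, 0.11 with the striatal covariate, 0.11 without BALB/c control 9 and 0.14 without BALB/c CRS 12, with a range of -0.17 to 0.14. Syt4 in BALB/c was 0.0001 without BALB/c control 10, with a range of -0.15 to 0.0001. Pclo averaged over strains was 0.048 with the replicate block. Syn2 between control strains was -0.14 with the myelin covariate and -0.078 with the striatal covariate. Library numbers shared between strains (9, 12 and 13) belong to different mice and did not deviate together (correlations of -0.24, -0.03 and -0.04). With these numbers as a replicate block, the median of the 37 genes for CRS in B6 was 0.08 in place of -0.12, Rims1 averaged over strains was -0.076 in place of -0.41, and the block moved no member call. The main limits are 3 libraries per group, unknown depth and marker gene levels that differ between the libraries.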
